A study of Mus musculus with 6 samples.

Results

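The DNA replication genes were 39 genes of S phase, the part of the cell cycle in which a cell copies its DNA. They were taken by gene symbol from a fixed list and span origin licensing, helicase activation, the polymerases, the sliding clamp and its loader, nucleotide supply and chromatin copying. All 39 were found among the 37991 gene identifiers counted. The counts came from the mesenchyme that surrounds the Müllerian duct, which becomes the oviduct and uterus in females and is lost in males. Embryos were of a mixed C57BL/6J x 129/SvEv background at embryonic day 14.5, and those of both sexes carried Amhr2Cre/+ and R26R YFP/+, so that YFP marked cells with Amhr2-Cre activity and their descendants. YFP+ cells were sorted and pooled from 2 to 7 embryos per library, giving 3 female and 3 male libraries without further treatment. The labels call the libraries biological replicates but name no litter or animal, so p-values measure the spread between these pooled samples. The study concerned osterix and anti-Müllerian hormone, the testis hormone that drives duct regression, and the question addressed here was whether the replication genes differed between male and female mesenchyme.

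Replication starts when the origin recognition complex, with Cdc6 and Cdt1, loads the ring-shaped MCM helicase onto origins in G1, a step known as licensing. In S phase Cdc45, the GINS complex and Mcm10 turn the loaded helicase on, polymerase alpha and primase lay down primers, and the polymerases epsilon and delta extend them behind the clamp PCNA. Most of these genes are transcribed under E2F factors as cells enter S phase, so their RNA is commonly read as a measure of how many cells in a tissue are cycling. In bulk samples such as these, fewer cycling cells and less RNA per cell cannot be told apart.

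Promoter letters of the E2F type were common in these genes. RefSeq promoters of the build GRCm38.p6, running from 250 bases before to 50 bases after the transcription start, were at hand for 32 of the 39 genes. The E2F letters searched were TTTCGCGC, TTTGGCGC, TTTCCCGC and TTTGCCGC on both strands, with overlapping matches allowed. At least 1 match was present in 13 of the 32 genes (40.6%, exact 95% interval 23.7% to 59.4%), against 2.60% of the 27025 genes with a promoter in the table and 4.53% of the 11085 such genes that were tested here. The CCAAT box was present in 59.4% of the genes with a promoter against 41.1% of all, and the letters TTTGAA, the core of the element that marks many mitotic promoters, in 12.5% against 20.2%. These matches describe letters in a window and were not tested as sites.

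The stretches of promoter that carry the matches are shown for 5 of the 9 members with a match before the RefSeq start, those whose stretch lies on no exon of the GENCODE M21 annotation. Capitals mark the E2F letters, read on either strand, and each run is written 5′ to 3′ along the gene's own strand.
Mcm6: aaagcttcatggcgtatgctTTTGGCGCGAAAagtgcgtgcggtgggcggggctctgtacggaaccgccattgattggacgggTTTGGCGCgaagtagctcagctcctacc
Cdc6: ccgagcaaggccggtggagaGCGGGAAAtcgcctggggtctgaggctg
Uhrf1: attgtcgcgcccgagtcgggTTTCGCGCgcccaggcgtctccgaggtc
Pola1: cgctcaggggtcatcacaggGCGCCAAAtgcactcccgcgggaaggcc
Mcm5: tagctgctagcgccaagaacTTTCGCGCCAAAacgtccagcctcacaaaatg

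In GRCm38.p6 the Mcm6 stretch lies at chr1:128359725-128359835 on the minus strand and holds 3 matches, 2 of them overlapping. The Cdc6 stretch lies at chr11:98907993-98908040, that of Uhrf1 at chr17:56304108-56304155 and that of Mcm5, with 2 overlapping matches, at chr8:75109336-75109387, all on the plus strand. The Pola1 stretch (chrX:93632266-93632313) is on the minus strand. Uhrf1 has 2 RefSeq starts in the table, and its stretch begins 205 bases before the second and 771 bases after the first. The stretches of Cdc6 and Uhrf1 lie in introns of transcripts of the same gene that start earlier in GENCODE. The matches of Gins3, Orc1, Mcm7 and Rfc3 before the RefSeq start fell in stretches that overlap GENCODE exons and are named only. The count files were made on mm9, so these coordinates cannot be set beside theirs.

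Depth was even, but the libraries stood apart within each sex. Counts in genes ranged from 22511872 to 24749859 per library. Counts outside annotated genes made up 17.5% and 18.2% in the replicate 1 libraries and 3.53% to 8.65% in the other four. Xist and Ddx3y matched the sex labels: Xist stood at 277.5 to 4729 CPM (counts scaled to a common library size) in female libraries and at most 2.22 CPM in male libraries, and Ddx3y at 17.1 to 159 CPM in male and at most 0.0492 CPM in female libraries. The 10 markers of duct mesenchyme were all detected, with Pdgfra highest on average. Their sum was 1859 to 2039 CPM in females and 2115 to 2872 CPM in males, and without Pdgfra 1364 to 1619 CPM and 1525 to 1873 CPM, which overlap. The sum mixes markers that went opposite ways. Osr1, Emx2 and Hoxa11 were lower in every male library than in every female library, Pdgfra and Wnt4 were higher, and the rest overlapped. None of the 10 passed an adjusted p of 0.05 in the edgeR test described below.

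Every one of the 39 replication genes had a lower fitted level in male than in female mesenchyme, but none passed the test. Levels are TMM-scaled CPM, and fold changes are log2 male over female from edgeR. The median of the 39 fold changes was −0.66, against −0.01 over the 15227 genes tested. A fold change below 0 was found for 39 of 39 members and for 50.5% of all genes tested. No member passed an adjusted p of 0.05 in edgeR's quasi-likelihood test, where 0.387% of all genes tested were called lower in male and 1.23% in either direction. At an unadjusted p under 0.05, 8 of 39 were lower, against 4.51% of all genes tested. DESeq2 called Rrm2 alone among the members, with 2.15% of all genes called lower, and limma-voom called none, with 0.519%. All 39 members passed the filter on low counts. Without female replicate 2, the fold changes of 5 members were above 0: Rfc2 (0.49), Pold1 (0.20), Gins4 (0.18), Mcm5 (0.016) and Gins2 (0.0094).

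The summed level of the 39 genes was 3789, 6263 and 4708 CPM in female replicates 1 to 3 and 2346, 3773 and 3398 CPM in male replicates 1 to 3. The highest male library therefore stood just under the lowest female library. The mean sum was 4919.8 ± 1250.2 CPM in females and 3172 ± 739.5 CPM in males (SD, n = 3 each), and the male mean was 64.5% of the female mean. In 12 of the 39 genes every male library lay below every female library, which held for 7.27% of all genes tested. These 12 were Rrm2, Rrm1, Tyms, Mcm6, Mcm10, Cdc6, Gmnn, Gins3, Pcna, Lig1, Rfc4 and Uhrf1. Without female replicate 1 the number was 22 of 39, against 1670 of the 15227 genes tested, and without both replicate 1 libraries it was 27, against 18.1%. No member lay higher in every male library.

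**Figure D1:**
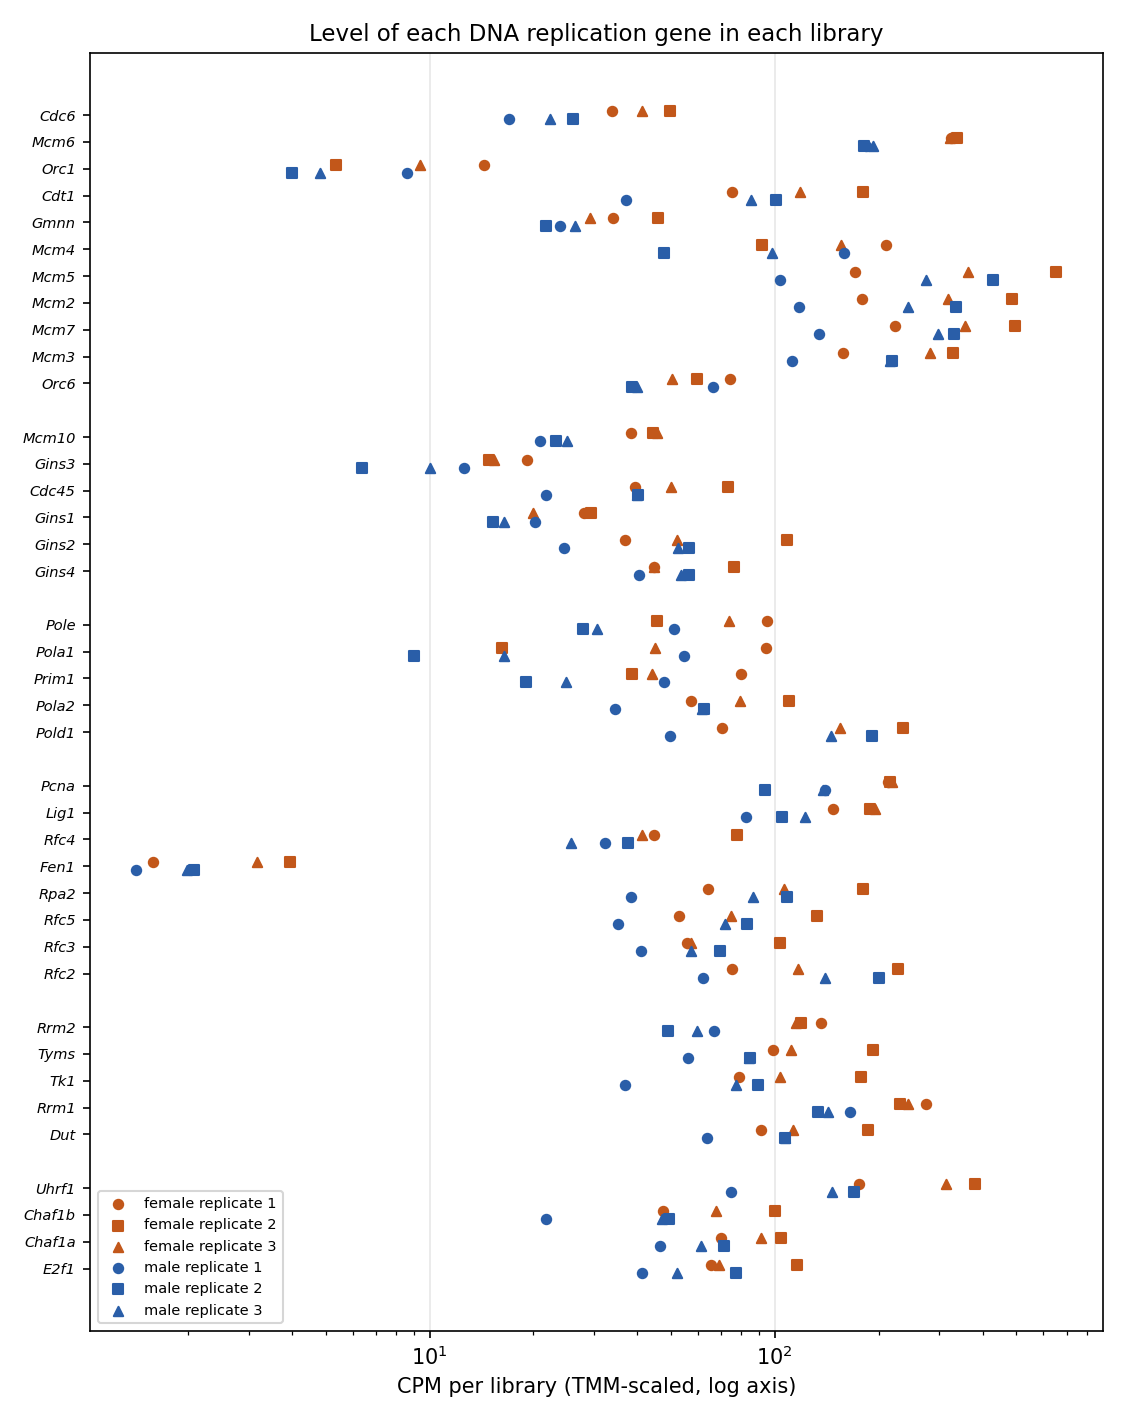
Each row is a DNA replication gene, grouped by role, and each point is 1 library (orange female, blue male; circle, square and triangle for replicates 1, 2 and 3), with TMM-scaled CPM on a log axis. In 12 of the 39 genes all blue points lie left of all orange points; in the others the groups overlap, and levels spread widely within a sex.

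Licensing genes set where replication can start. Cdc6, the loader that recruits the MCM ring to origins, stood at 33.8, 49.8 and 41.3 CPM in female replicates 1 to 3 and at 17.0, 26.1 and 22.3 CPM in male replicates 1 to 3. The sexes did not overlap for Cdc6, and the log2 fold change was −0.93 (SE 0.33, adjusted p = 0.392 by edgeR). Mcm6, a subunit of the helicase ring, was the steadiest of the members, at 325, 338 and 322 CPM in females and 184, 182 and 193 CPM in males. The male mean of Mcm6 was 56.7% of the female mean, with a log2 fold change of −0.82 (SE 0.29, adjusted p = 0.373 by edgeR). The within-sex SD of Mcm6 was 0.042 on the log2 scale, against a median of 0.48 over the members and 0.65 over all genes tested, and the SE of the fit also draws on the spread of other genes.

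The remaining MCM ring subunits were lower in male on average and overlapped between the sexes. Mcm2, Mcm3, Mcm4, Mcm5 and Mcm7 had log2 fold changes of −0.50, −0.49, −0.59, −0.56 and −0.50, with SEs of 0.44 to 0.67. Female libraries ranged from 171 to 655 CPM for Mcm5 and male libraries from 104 to 428 CPM. Mcm4 ran from 92.0 to 210.0 CPM in females and from 47.7 to 159 CPM in males. Cdt1, which delivers the ring to the origin, ranged from 75.1 to 179.6 CPM in females and from 37.0 to 101 CPM in males. Gmnn encodes geminin, the inhibitor of Cdt1, and ranged from 29.2 to 45.9 CPM in females and from 21.8 to 26.5 CPM in males, without overlap. The origin recognition subunits Orc1, at 5.36 to 14.4 CPM in females and 4.004 to 8.61 CPM in males, and Orc6, at 50.5 to 74.2 CPM and 38.5 to 66.1 CPM, overlapped.

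Helicase activation genes followed the same order of means. Mcm10, which helps the activated helicase pass onto single strands, stood at 38.4, 44.5 and 45.6 CPM in female replicates 1 to 3 and at 20.9, 23.2 and 25.03 CPM in male replicates 1 to 3. The highest male value was below the lowest female value, and the log2 fold change was −0.90 (SE 0.29, adjusted p = 0.305 by edgeR). Gins3, a subunit of the GINS complex, stood at 19.1, 14.8 and 15.4 CPM in females and 12.5, 6.38 and 10.03 CPM in males. Its sexes did not overlap either, with a log2 fold change of −0.77 (SE 0.37, adjusted p = 0.687 by edgeR). Cdc45 and the GINS subunits Gins1 and Gins2 had log2 fold changes of −0.68, −0.58 and −0.57. Gins4 stood at 44.6 to 76.0 CPM in females and 40.5 to 56.6 CPM in males, with a log2 fold change of −0.13 (SE 0.36). The sum of the 6 genes was 207 to 347 CPM in females and 140.3 to 198 CPM in males.

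The polymerase and primase genes overlapped one by one. Pole, the catalytic subunit of the leading strand polymerase epsilon, stood at 95.0, 45.7 and 73.5 CPM in female replicates 1 to 3 and at 51.1, 27.8 and 30.5 CPM in male replicates 1 to 3. Only male replicate 1 reached into the female range, just above female replicate 2, and the log2 fold change was −0.97 (SE 0.42, adjusted p = 0.573 by edgeR). Pola1 and Pola2, subunits of polymerase alpha, and Prim1, the primase catalytic subunit, had log2 fold changes of −0.95, −0.63 and −0.82. Pola1 had the largest SE of the members, 0.85. Pold1, the catalytic subunit of polymerase delta, ranged from 70.5 to 235 CPM in females and from 49.7 to 191 CPM in males, with a log2 fold change of −0.25 (SE 0.63). The sum of the 5 genes did not overlap, at 397, 446 and 397 CPM in female replicates 1 to 3 against 238, 309.8 and 279 CPM in male replicates 1 to 3. That sum pools genes that shifted opposite ways between libraries. In replicate 1 of both sexes Pola1, Prim1 and Pole were highest, and Pold1 and Pola2 lowest.

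Among clamp, clamp loader and fork genes the clamp itself was tightest in female mesenchyme. Pcna, the sliding clamp that tethers polymerases to DNA, stood at 213, 216 and 218 CPM in female replicates 1 to 3 and at 139.6, 93.8 and 138 CPM in male replicates 1 to 3. All male values were below all female values, with a log2 fold change of −0.80 (SE 0.31, adjusted p = 0.476 by edgeR). Pcna has 2 named pseudogenes in the reference and Tyms has 1, so reads may have been lost or misplaced between the copies.

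Lig1, the ligase that seals Okazaki fragments, stood at 147, 189 and 195 CPM in females and 82.5, 105 and 122 CPM in males. It did not overlap, at a log2 fold change of −0.78 (SE 0.32, adjusted p = 0.521 by edgeR). Rfc4, a subunit of the clamp loader, stood at 44.6, 77.6 and 41.3 CPM in females and 32.2, 37.6 and 25.6 CPM in males. Its female replicate 2 was far above the other libraries, and its log2 fold change was −0.78 (SE 0.37, adjusted p = 0.684 by edgeR). The loader subunits Rfc5 and Rfc3 had log2 fold changes of −0.45 and −0.37, and Rfc2, at 61.8 to 201 CPM in male and 75.4 to 227 CPM in female libraries, had −0.06 (SE 0.58), a sign that turned with a GC content and length offset (0.0042). Rpa2, a subunit of the single-strand binding protein, had −0.58.

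Fen1, the flap nuclease of lagging strand synthesis, was the lowest of the members, at 1.58, 3.93 and 3.16 CPM in female replicates 1 to 3 and 1.42, 2.08 and 1.98 CPM in male replicates 1 to 3. These values rest on 37 to 80 counts per library. In the reference annotation 84.2% of the exon bases of Fen1 are covered by exons of Tmem258 and Gm10143, and reads that fell on more than 1 gene were set apart in the files. The level of Fen1 given here is therefore uncertain. The same coverage was 67.3% for Gins2 (by Gse1) and 52.5% for Chaf1a (by Ubxn6), and at most 15.1% for the remaining members.

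Of the 5 nucleotide supply genes, 3 had every male library below every female library, against 7.27% of all genes tested, and their mean sum in males was 58.3% of that in females. Rrm2, the regulated subunit of ribonucleotide reductase, which makes the deoxynucleotides for S phase, stood at 136, 119 and 115 CPM in female replicates 1 to 3 and at 66.6, 49.2 and 59.7 CPM in male replicates 1 to 3. The male mean was 47.4% of the female mean, and the log2 fold change of −1.08 (SE 0.30) had the smallest p of the members and missed the threshold (edgeR adjusted p = 0.209). Rrm1, the large subunit of the same enzyme, stood at 274, 230.5 and 243 CPM in females and 166, 133 and 143 CPM in males, also without overlap, with a log2 fold change of −0.76 (SE 0.30, adjusted p = 0.476 by edgeR). The ratio of Rrm1 to Rrm2 was 1.94 to 2.11 in female and 2.40 to 2.71 in male libraries, so every male library had a higher ratio than every female library. It was the only ratio computed that separated the sexes. Those of Mcm5 to Mcm4, Cdt1 to Gmnn, Pola2 to Pola1 and Pold1 to Pole overlapped.

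Tyms, thymidylate synthase, stood at 98.5, 192 and 112 CPM in female replicates 1 to 3 and 55.9, 84.8 and 84.2 CPM in male replicates 1 to 3. Its sexes did not overlap, and its log2 fold change was −0.84 (SE 0.39, adjusted p = 0.648 by edgeR). Tk1, thymidine kinase, and Dut, the dUTPase that keeps uracil out of DNA, had log2 fold changes of −0.82 and −0.49 and overlapped. The sum of the 5 genes was 678 to 906 CPM in females and 389 to 472 CPM in males.

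Uhrf1 had the largest fitted difference of the members. It encodes a factor that helps carry DNA methylation over to the new strand. Uhrf1 stood at 175, 379.9 and 313 CPM in female replicates 1 to 3 and 74.6, 170.1 and 147 CPM in male replicates 1 to 3. The lowest female library was only slightly above the highest male library, and the log2 fold change was −1.15 (SE 0.46, adjusted p = 0.512 by edgeR). Chaf1b and Chaf1a, subunits of the chromatin assembly factor that places histones behind the fork, had log2 fold changes of −0.86 and −0.57. E2f1, a transcription factor of S phase entry, had −0.55 (SE 0.40), at 65.4 to 116 CPM in females and 41.3 to 77.5 CPM in males.

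**Figure D2:**
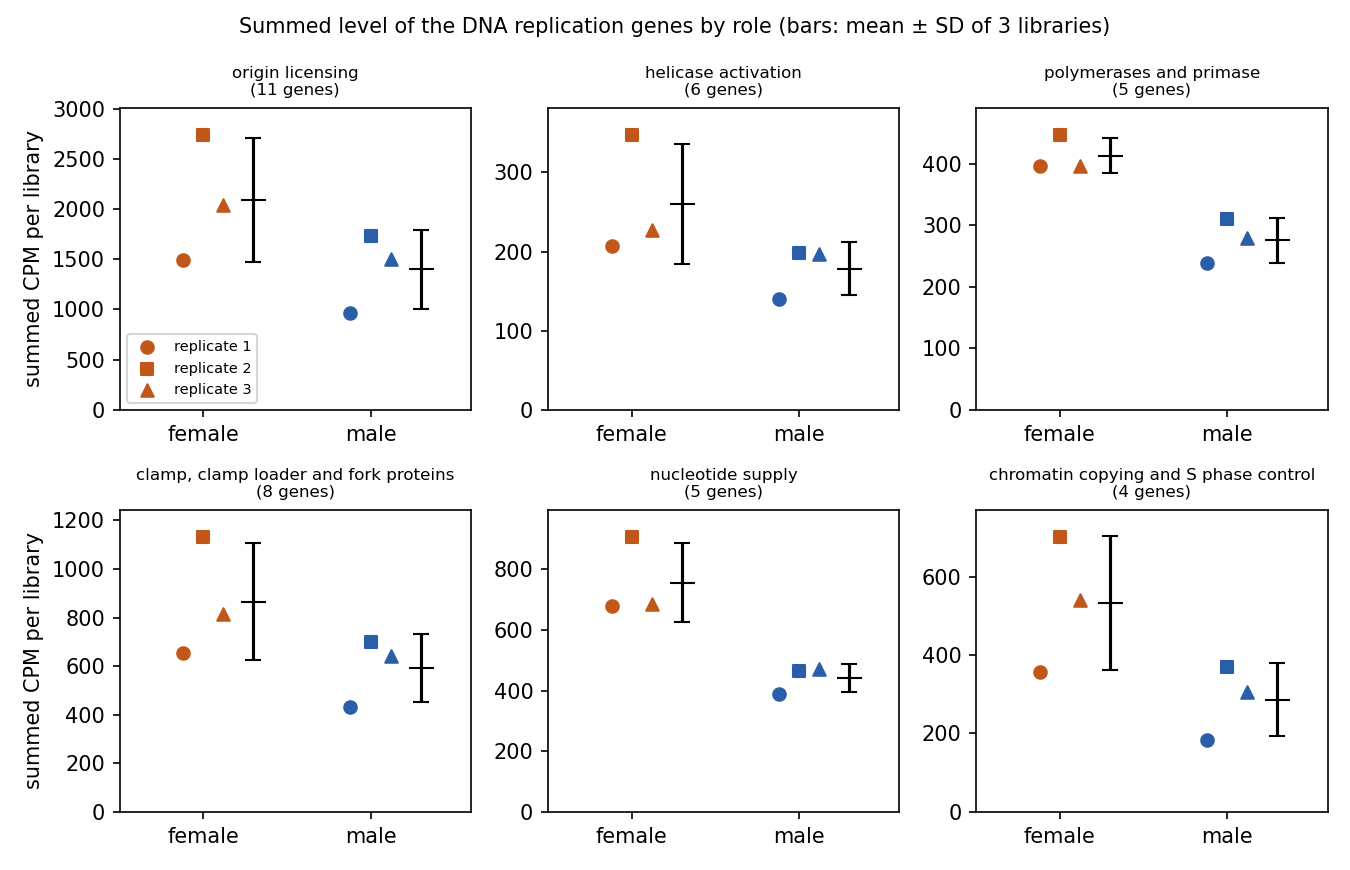
Each panel sums the CPM of the DNA replication genes of 1 role in each library (points, shape by replicate), with mean ± SD of 3 libraries per sex beside them. The sums of helicase activation, polymerase and nucleotide supply genes do not overlap between the sexes, and those of the other roles do.

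**Figure D3:**
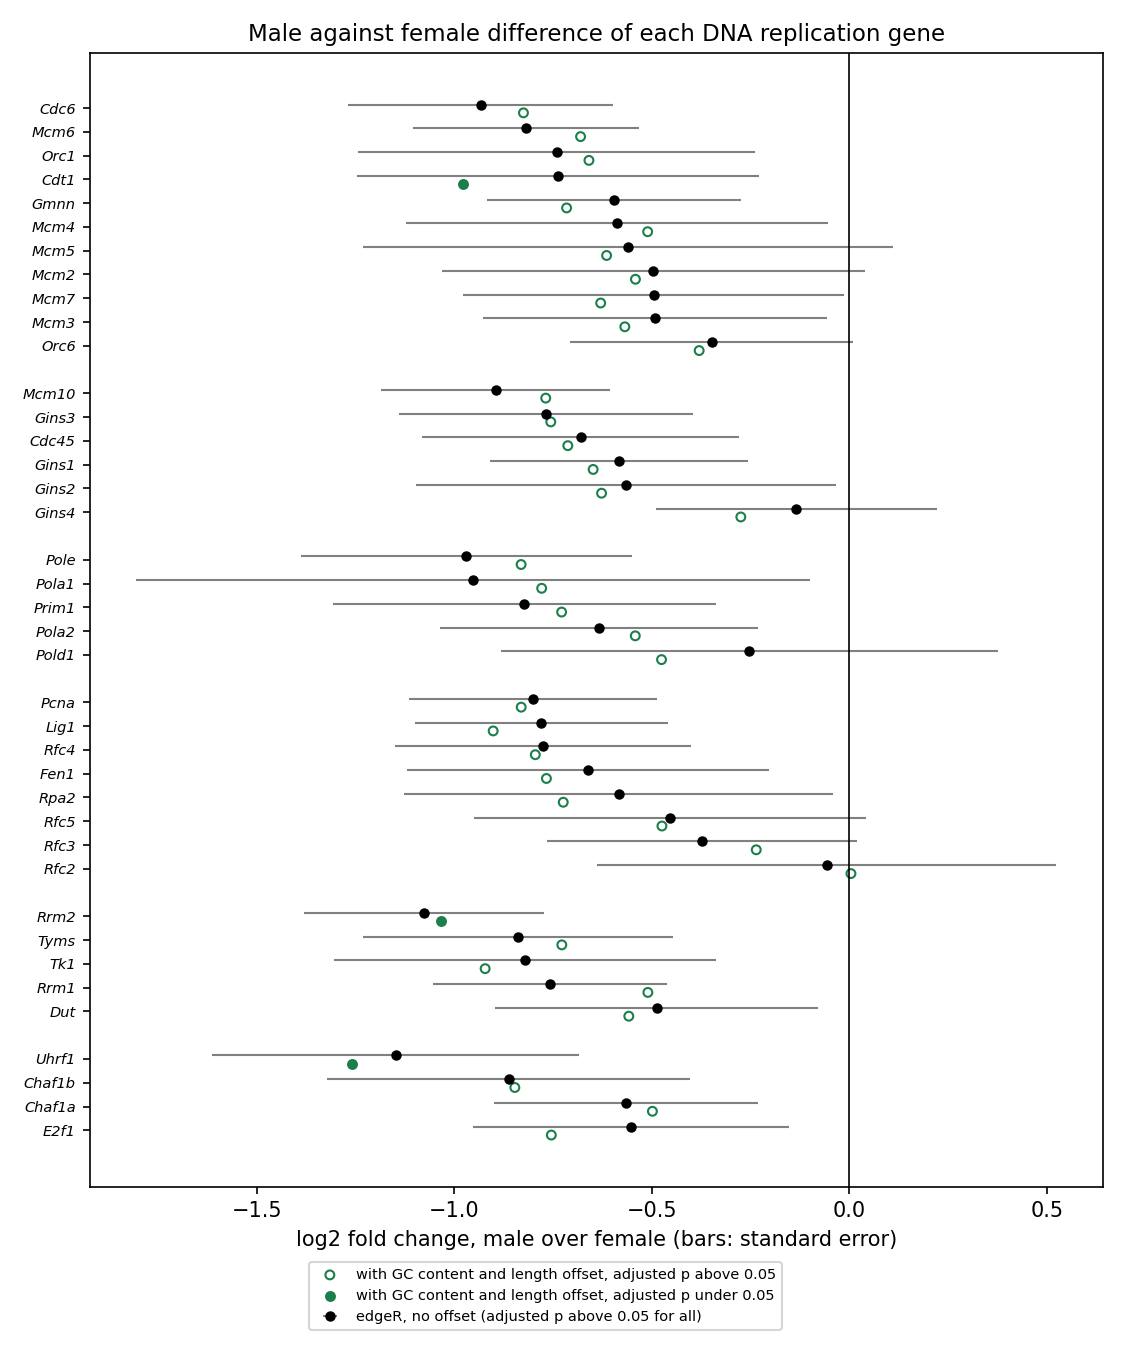
Black points are log2 fold changes, male over female, with their standard errors, and green circles are the values with a GC content and length offset (filled where the adjusted p is under 0.05). All black points lie left of 0, and the filled circles are Rrm2, Uhrf1 and Cdt1.

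The spread within a sex went with the GC content of the transcripts. Transcripts of the 39 genes ranged from 41.5% GC in Pola1 to 61.0% in Pold1, with a median of 49.8% against 49.99% over all genes tested. Pola1 stood at 94.1, 16.2 and 45.0 CPM in female replicates 1 to 3 and at 54.8, 9.05 and 16.4 CPM in male replicates 1 to 3, highest in replicate 1 of both sexes. Pold1 showed the opposite order, at 70.5, 235 and 155 CPM in females and 49.7, 191 and 145 CPM in males, lowest in replicate 1 of both sexes. These examples were chosen after their values were seen.

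Across the 39 genes, the Pearson correlation of GC content with a library's deviation from its sex mean was −0.68 in female replicate 1 and −0.70 in male replicate 1. It was 0.57 and 0.67 in the replicate 2 libraries and 0.34 and 0.59 in the replicate 3 libraries. The 39 genes share the 6 libraries and are not independent, so these are descriptions. Over the 14674 tested genes with a GC value the replicate 1 correlations were −0.68 and −0.71, but that of female replicate 3 was −0.04.

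**Figure D4:**
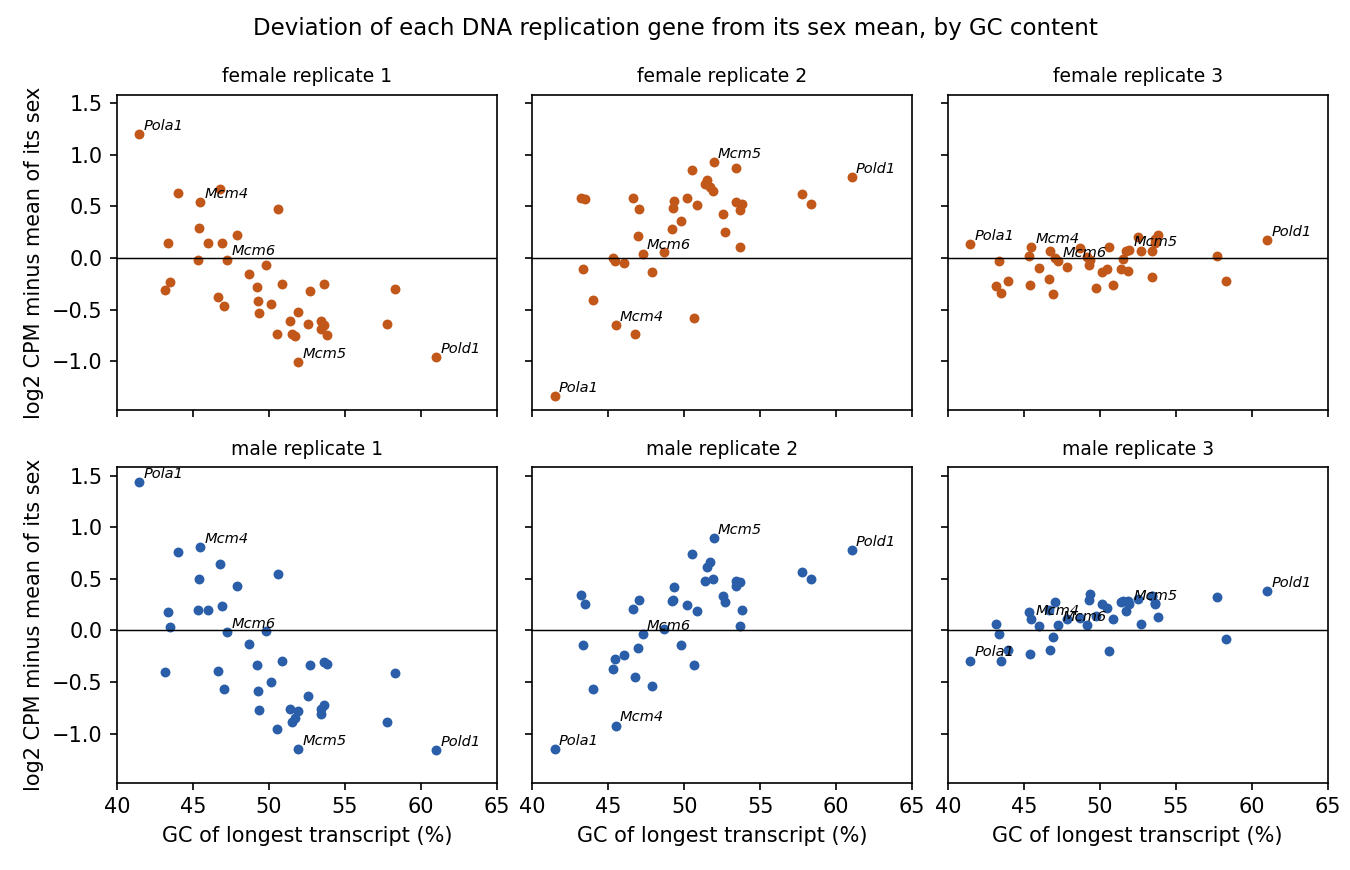
Each panel is 1 library, and each point is a DNA replication gene, with the GC content of its longest transcript on the x axis and its log2 CPM minus the mean of its sex on the y axis. Points slope down in both replicate 1 libraries (r = −0.68 and −0.70) and up in both replicate 2 libraries (0.57 and 0.67), with Mcm6 near 0 in every library.

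The subunits of the MCM ring, which assemble in equal numbers as protein, showed the same library pattern in their RNA. Mcm5 over Mcm4 gave ratios of 0.814, 7.11 and 2.33 for female replicates 1 to 3, and for the male ones of 0.652, 8.97 and 2.80. The lowest ratio was in replicate 1 and the highest in replicate 2 of both sexes. Per kilobase of the longest transcript, the highest of the 6 subunits was 1.64 times the lowest in female replicate 1 and 1.48 times in male replicate 1, but 7.55 and 9.52 times in the replicate 2 libraries, where Mcm5 was highest and Mcm4 lowest. The 6 subunits summed to 1264, 2394 and 1796 CPM for female replicates 1 to 3, and for the male ones to 810.2, 1541 and 1320.4 CPM, so the sexes overlapped.

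With a spline of GC content and length as an offset, 3 of the 39 genes passed the threshold lower in male, against 2.92% of all genes tested. Rrm2 had a log2 fold change of −1.04 (SE 0.17, adjusted p = 0.0152 by edgeR). Cdt1, the licensing factor, moved from −0.74 to −0.98 (SE 0.17, adjusted p = 0.0193 by edgeR), and Uhrf1 from −1.15 to −1.26 (SE 0.24, adjusted p = 0.0274 by edgeR). The median fold change of the members moved from −0.66 to −0.71, while their median within-sex SD went from 0.48 to 0.34 on the log2 scale. The offset did not narrow every member: the within-sex SD of Mcm6 went from 0.042 to 0.350 and that of Rrm1 from 0.145 to 0.693. With it, 22 of the 39 genes had every male library below every female library, against 12.6% of all genes tested.

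Levels between genes were compared as CPM per kilobase of the longest reference transcript, which may not be the transcript made in these cells. Pcna was highest on this scale, at a mean of 112 over the 6 libraries (range 61.8 to 144), followed by Mcm7 at 103, Mcm5 at 98.3 and Mcm2 at 80.0. Gins3 (5.18) and Orc1 (2.57) were near the bottom, and Fen1 stood last at 0.99. The low end thus held origin recognition and helicase subunits beside the catalytic polymerases Pole (7.53) and Pola1 (7.34), and the high end the clamp and 5 of the 6 MCM ring subunits. For every pair of neighbours in this order the library ranges overlapped, so no step of it exceeded the spread between libraries.

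Further genes of replication and S phase control outside the 39 were also lower in male on average. Of 61 such genes, all tested, none passed in either direction by edgeR (1.23% of all genes tested did), 55 had a fold change below 0 and the median was −0.44. At an unadjusted p under 0.05 there were 2 of 61, E2f2 and Dck, against 4.51% of all genes tested lower in male. DESeq2 called 1 of 61 lower, against 2.15%, so both shares were no higher than the background. In 12 of 61 (19.7%) every male library lay below every female library, against 7.27% of all genes tested, and 0 of 61 lay higher in every male library. With the GC content and length offset 3 of 61 were called lower, against 2.92% of all genes tested. E2f2, an activating E2F factor, stood at 18.8, 32.7 and 29.1 CPM in female replicates 1 to 3 and 6.92, 12.5 and 9.90 CPM in male replicates 1 to 3. It did not overlap between the sexes and had a log2 fold change of −1.46 (SE 0.39, adjusted p = 0.186 by edgeR), larger than that of any of the 39. Dck, the deoxycytidine kinase of nucleotide salvage, and Timeless, a fork protection protein, followed by p, with log2 fold changes of −1.09 and −0.62.

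Of the 6 genes with a positive fold change, Pold4, Rrm2b and Rb1 had the smallest p. Pold4, an accessory subunit of polymerase delta that cells can lose on DNA damage, stood at 9.07, 25.6 and 14.2 CPM in female replicates 1 to 3 and 13.8, 48.7 and 43.3 CPM in male replicates 1 to 3. Its libraries overlapped, at a log2 fold change of 1.12 (SE 0.60). Rrm2b, the reductase subunit used outside S phase, and Rb1, which restrains E2F factors, had 0.71 (SE 0.79) and 0.44 (SE 0.88).

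Promoter letters and the size of the difference were set side by side after the results were known. The 13 members with E2F letters had a median log2 fold change of −0.74, the 19 with a promoter and no letters −0.68, and the 7 with no promoter in the table −0.58. With the GC content and length offset these medians were −0.68, −0.73 and −0.63, so the order of the groups changed. Among tested genes that were not members, the 489 with E2F letters had a median of −0.10, with 60.1% below 0, and the 10564 without had 0.01, with 49.5% below 0.

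Genes of other cell cycle phases and cell cycle inhibitors were mostly lower in male as well: 13 of 15 had a fold change below 0, with a median of −0.67, and Cdkn1c and Ccnd1 were above 0. Ccna2, the S and G2 cyclin, had a log2 fold change of −0.98 (SE 0.40, adjusted p = 0.516 by edgeR), Mki67 −0.88 (SE 1.07) and Ccnd1, the G1 cyclin D1, 0.49 (SE 0.35). The inhibitor genes went both ways, with Cdkn1a at −1.64 (SE 0.73), Cdkn1b at −0.38 (SE 0.37) and Cdkn1c at 1.07 (SE 0.65). None of the 15 such genes passed in edgeR, and 1 of 15, Ccna2, was lower at an unadjusted p under 0.05, against 4.51% of all genes tested.

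Markers of further cell types that may have passed the YFP gate were summed in each library, and their part in the results above was not tested. Between the sexes the sums did not overlap for 4 of 11 lists (exact two-sided permutation p = 0.1, the smallest that 3 against 3 libraries allow, adjusted p = 0.24 over 12 lists with the mesenchyme list). Of these, Sertoli cell markers (9 of 9 found, Sox9 most abundant) stood at 16.7 to 19.6 CPM in females and 64.3 to 103 CPM in males. Pregranulosa cell markers (8 of 8, Wnt6) stood at 165 to 255 and 78.5 to 145 CPM. Both lists also did not overlap without their most abundant marker, but their single markers were mixed. Cst8, Fgf9 and Ptgds of the Sertoli list overlapped between the sexes, as did Wnt6, Fst, Bmp2 and Lgr5 of the pregranulosa list. The rest of both lists did not overlap, though Dmrt1 and Cbln4 stood at no more than 0.650 CPM in any library. Endothelium (6 of 6) stood at 47.3 to 93.4 and 141 to 328 CPM, but Kdr made up most of each sum, and the 5 remaining markers overlapped at 5.801 to 7.31 and 7.08 to 8.61 CPM. Kidney progenitors and stroma (4 of 4) stood at 118 to 199 and 56.0 to 96.9 CPM, nearly all of it Sall1, and the 3 remaining markers overlapped at 0.331 to 1.48 and 0.841 to 1.52 CPM. The sums overlapped for duct epithelium, at 170.0 to 567 CPM in females and 126 to 387 CPM in males, and for mesothelium (5 of 6 found), at 533 to 707 and 483 to 576 CPM. They also overlapped for erythroid cells, at 6.61 to 28.7 and 6.20 to 14.6 CPM, and for macrophages and leukocytes, at 5.802 to 9.88 and 8.09 to 11.8 CPM. Krt18 was the most abundant duct epithelium marker, and the 8 remaining overlapped at 60.0 to 217 and 44.3 to 143 CPM. Epcam of that list did not overlap, at 10.1 to 15.5 CPM in females and 2.13 to 3.08 CPM in males. By edgeR 1 of the 6 duct epithelium markers tested was called lower in male and 0 higher, against 0.387% of all genes tested called lower. Of the 8 pregranulosa markers tested, 1 was called lower and 0 higher. Of the 7 Sertoli markers tested, 3 were called higher and 0 lower, against 128 of the 15227 genes tested called higher. No marker of the remaining lists was called. Fetal Leydig cell markers summed to at most 8.89 CPM, skeletal muscle markers to at most 3.56 CPM and germ cell markers to at most 2.33 CPM in any library. No marker found was at 0 in every library.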

How the data were processed

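RNA was sequenced from 3 female and 3 male libraries, grouped by their titles. Each deposited file holds raw counts by Ensembl gene; its 5 summary lines entered neither library sizes nor tests. The submitters' processing notes list TopHat, HTSeq, DESeq and the build mm9, and the sources used here give no annotation release or strand setting. TruSeq v2 libraries were read as paired 76-base reads, per the labels' protocols.

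Symbols came from a table that matched 32919 of 37991 identifiers. Genes were kept by filterByExpr, scaled by TMM, then tested in edgeR 4.0.16 (R 4.3.3; quasi-likelihood, robust, sex as the only term, Benjamini-Hochberg over 15227 genes, threshold 0.05), after a check on simulated data. Each SE is the size of the log2 fold change divided by the root of F. The offset used splines with 5 degrees of freedom of transcript GC content and length (GENCODE M21), and genes without these values kept the TMM offset. Values in every library are given for the 12 members with the smallest p and for the highest and lowest by level per length; of the other replication genes, the 3 with the smallest p in each direction are named. Promoter stretches are printed in order of p where they overlap no exon. Alternatives were other scalings, filters and tools (DESeq2 1.42.0, limma 3.58.1), a replicate block, the offset and leaving out libraries. Members and lists were chosen with earlier results of these data known.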

Additional observations from a re-analysis of the deposited data

Results flagged for a closer look

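Counts outside annotated genes entered no comparison and had no control library to be set against. They were above 0 in every library. As a share of the counts in genes, outside genes and on more than 1 gene, they made up 17.5% in female replicate 1, 3.53% in female replicate 2 and 8.65% in female replicate 3. The male libraries had 18.2% (replicate 1), 5.45% (replicate 2) and 5.50% (replicate 3). In each sex the replicate 1 library had the highest share and the lowest summed level of the DNA replication genes; whether the shares bear on those levels was not tested.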

How the results depend on the processing

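The median log2 fold change of the 39 genes stayed below 0 in all 20 alternatives (−0.80 to −0.42), and so did the summed level as log2 male over female in the 9 alternatives that apply to it (−0.79 to −0.42). No member was called under other scalings, filters, limma-voom, edgeR without the robust option or with libraries left out. Members called lower were 1 with DESeq2 and 3 with the GC content and length offset; the other replication genes gave 1 and 3. Genes called over all were 128 higher and 59 lower in the fit reported, 444 and 327 with DESeq2, and 460 and 445 with the offset, which moved the split towards even. Leaving out libraries gave 0 to 225 higher and 0 to 129 lower. Without female replicate 3 or male replicate 3, or without both libraries of replicate 2 or 3, no gene was called at all, so 0 called members says little there. Members without overlap were 12 to 27 with libraries left out, where 8.2% to 18.1% of all genes tested had none, and 22 with the offset (12.6%). Rfc2 turned positive with the offset (0.0042, and 0.0015 with the block too). With libraries left out, 5 members reached a positive value: Rfc2 (−0.47 to 0.49), Gins4 (−0.33 to 0.18), Pold1 (−0.66 to 0.20), Mcm5 (−1.07 to 0.016) and Gins2 (−0.85 to 0.0094). Each was highest without female replicate 2; Rfc2 and Pold1 were also positive without male replicate 1 (0.29 and 0.13), and Rfc2 and Gins4 without both replicate 2 libraries (0.067 and 0.065). The causes were not tested.

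Same-numbered libraries of the sexes had correlated deviations for replicates 1 and 2 (0.93 and 0.85 over 15227 genes) but not 3 (−0.07). Male replicate 3 correlated best with female replicate 2 (0.59). Deviations were taken from the mean of each sex, so these correlations are tied together and cannot decide whether the numbers pair the libraries. The labels do not say what the numbers mark, so the block was kept as an alternative only. With a replicate block, 32 of the 39 genes were lower in male past the threshold (14.2% of all genes tested), and 35 with block and offset (15.4%). The other replication genes gave 33 lower and 2 higher with the block, and 36 and 3 with both. Genes over all gave 1997 higher and 2167 lower, and 2069 and 2349.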
